A study of Mus musculus with 8 samples.

Results

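Complexes III and IV close the mitochondrial respiratory chain. Complex III, the cytochrome bc1 complex, passes electrons from ubiquinol to cytochrome c, and complex IV, cytochrome c oxidase, passes them from cytochrome c to oxygen; both help build the proton gradient that drives ATP synthesis. Their catalytic cores combine subunits made in the mitochondrion (cytochrome b and the core subunits of cytochrome c oxidase) with a shell of subunits encoded in the nucleus, and dedicated assembly factors insert heme, copper and iron-sulfur centres. In mammals several complex IV subunits exist as paired forms, a common form and a heart and skeletal muscle form, and heart muscle, which works almost entirely on oxidative metabolism, holds both.

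The genes described here are the nuclear genes of these complexes, with cytochrome c, chosen by name: symbols that start with Uqcr or Uqcc, symbols of the form Cox followed by a number, and Cyc1, Cycs, Sco1, Sco2, Surf1, Bcs1l, Ttc19 and Lyrm7, without names that carry the pseudogene mark -ps. This gave 48 of the 54429 rows of the table. They comprise 9 complex III subunits, 6 complex III assembly factors, cytochrome c, 10 common complex IV subunits, 8 tissue-specific or related complex IV forms, 12 complex IV assembly factors, and 2 further names that match, Cox6c2 and Cox20b, both of which are processed pseudogenes in the annotation. A gene was tested where 4 or more libraries reached 1 RPKM, and 46 passed. Cox8c, the testis form of subunit 8, was listed at 0 in all 8 libraries, and Cox20b reached at most 0.397 RPKM.

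RNA was sequenced from both ventricles of C57BL/6 mice with floxed Esrra and Esrrg, the genes for estrogen-related receptors alpha and gamma, at postnatal age 35 days. These receptors are transcription factors known to act on genes of oxidative phosphorylation. Within postnatal day 0 to 1 an adeno-associated virus was given. Its cargo in the 4 libraries labelled AAV-Cre was Cre recombinase driven by the cTnT (cardiac troponin T) promoter, a promoter of heart muscle cells, and in the 4 labelled AAV-Luc it was luciferase. Both groups carry the floxed alleles, so they differ in the virus. The comparison asks how the heart's transcripts after birth differ when both receptors are targeted. Values are reads scaled to transcript length and library size (RPKM), from libraries whose totals, implied by the steps of low values, ran from 48272000 to 61236000. Library numbers follow column order and are names only. Whether each library stands for its own mouse is not said. The p-values describe scatter among libraries, and how much of that scatter is technical was not tested. Xist, a transcript of female cells, scattered widely among libraries of the same label (log2 fold change between groups 0.47, SE 1.67). The largest SE among the genes described here was 0.29, for Cox7b2. The part of sex in the scatter and in the differences between the groups was not tested.

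The targeted genes were read first. Esrrg measured 221.1, 204.6, 241.7 and 204.3 RPKM in the AAV-Cre libraries, against 120.1, 109.2, 107.9 and 113.8 RPKM in the AAV-Luc libraries, and Esrra measured 41.9, 37.3, 43.6 and 33.3 RPKM in the AAV-Cre libraries, against 45.3, 50.1, 41.8 and 43.1 RPKM in the AAV-Luc libraries. Esrrg was higher in every library labelled AAV-Cre, which goes against its label if the whole transcript is read, and Esrra overlapped between the groups. The groups are therefore called by their labels throughout, and each direction below is between libraries so labelled. Across the table, 10559 of 16385 genes tested were higher and 1454 lower, with a median log2 fold change of 0.41. Because RPKM is a share of the library, values with each library centred on its median are also given for each group of members below. Centring removes that shift of 0.41. After it, the targeted Esrra was lower (log2 fold change -0.62, limma adjusted p = 0.000549), while Esrrg was still higher (0.54, limma adjusted p = 0.000317). Ventricular muscle markers were high in both groups but uneven: of 12 cardiomyocyte markers 5 fell and 4 rose (8 were lower and 0 higher after centring), with summed levels of 23530 to 27250 RPKM in AAV-Cre and 27830 to 32120 RPKM in AAV-Luc. All 8 fibroblast markers rose (summed 1385 to 2522 RPKM in AAV-Cre, 588.9 to 741.0 RPKM in AAV-Luc). So did all 8 macrophage markers (334.5 to 443.7 RPKM in AAV-Cre, 166.0 to 179.1 RPKM in AAV-Luc). After centring 7 of the 8 fibroblast markers and all 8 macrophage markers were higher. Of 7 endothelial markers 1 rose (0 were higher and 5 lower after centring), with sums of 175.0 to 210.6 RPKM in AAV-Cre and 163.9 to 209.4 RPKM in AAV-Luc. The atrial markers Myl7, Myl4, Sln and Nppa all rose (summed 4664 to 10240 RPKM in AAV-Cre, 102.6 to 221.9 RPKM in AAV-Luc). Nppa made up most of these sums, at 4547 to 10130 RPKM in AAV-Cre and 94.3 to 168.7 RPKM in AAV-Luc. Myl7, Myl4 and Sln had means of 64.3, 63.9 and 6.21 RPKM in AAV-Cre, against 11.3, 13.0 and 1.15 RPKM in AAV-Luc. Sln overlapped between the groups, and all 4 markers were still higher after centring. Myl7, Myl4 and Sln were highest in AAV-Cre library 3 and AAV-Luc library 2. In whole ventricles, fewer cardiomyocytes and less RNA per cardiomyocyte cannot be told apart, and the part of these markers in the results below was not tested.

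As deposited, most transcripts of the enzyme subunits fell, while those of the assembly machinery were divided. After centring most assembly factors were lower too. Of the 46 members tested, 29 fell, 5 rose and 12 did not pass the threshold, at an adjusted p of 0.05 in limma. Over all genes tested, 8.87% fell and 64.4% rose. The median log2 fold change of the 46 members was -0.68, against 0.41 for all genes tested. Within the members, 9 of 9 complex III subunits, cytochrome c and 8 of 10 common complex IV subunits fell. Of the 7 tissue-specific or related forms tested, 4 fell and 3 did not pass, with a median of -0.24. The pseudogene row Cox6c2 is counted among the 29. Of the 18 assembly factors, however, 6 fell, 5 rose and 7 did not pass. After centring, 13 of these 18 were lower, 1 was higher and 4 did not pass, with a median of -0.35 against -1.37 for the 20 complex III subunits, common complex IV subunits and cytochrome c, all of which were lower. Every AAV-Cre value lay below every AAV-Luc value in 29 members, against 7.67% of all genes tested. After centring, 39 members were lower and 1 higher, against 24.1% and 21.8% of all genes. In either direction 34 of the 46 passed (73.9%), a share near the 73.3% of all genes. The 3 members with every AAV-Cre value above every AAV-Luc value compare with 58.4% of all genes. The subunits are among the most abundant transcripts, and of the 813 genes that averaged 100 RPKM or more, 29.4% fell and 53.3% rose.

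**Figure D1:**
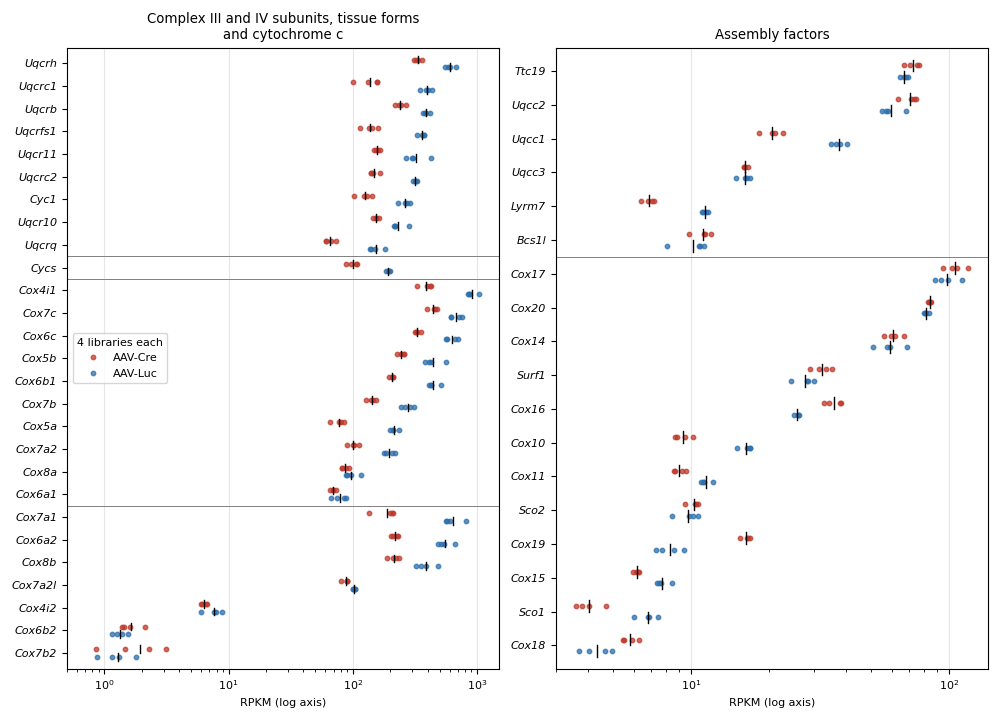
RPKM on a log axis of each tested complex III and IV gene (without the pseudogene row Cox6c2) in the 4 AAV-Cre libraries (red, upper row of each gene) and the 4 AAV-Luc libraries (blue, lower row); black bars mark group means and grey lines separate complex III, cytochrome c, common complex IV subunits and tissue forms on the left, and complex III from complex IV factors on the right. The groups are separated in 9 of 9 complex III subunits, while most assembly factors lie close together or overlap. Over all genes tested, every AAV-Cre value lies below every AAV-Luc value in 7.67% and above in 58.4%.

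Upstream sequences of members with different responses are shown first, since members that fell and members that did not share some of the same letters. RefSeq (GRCm38.p6) promoter windows, from 250 bases before to 50 after the annotated start, were found for 35 of the 48 members. They were searched on both strands for TNAAGGTCA, the extended element that estrogen-related receptors bind, its core AAGGTCA, which the longer motif contains, the NRF1 palindrome, whose letters are the capitals of the Cox6a1 line below, and CCGGAAGT for GABPA. NRF1 and GABPA are factors long studied at respiratory chain genes. The next lines give the matches upstream of a start, from 5′ to 3′ on the strand of the gene, with the motif in capitals and up to 30 bases on either side. ACTTCCGG is the reverse complement of CCGGAAGT.
Uqcrh: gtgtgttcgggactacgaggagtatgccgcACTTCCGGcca
Uqcr11: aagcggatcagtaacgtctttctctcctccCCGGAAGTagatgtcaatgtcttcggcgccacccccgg
Cox10: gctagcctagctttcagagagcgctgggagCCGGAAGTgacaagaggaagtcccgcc
Cox16: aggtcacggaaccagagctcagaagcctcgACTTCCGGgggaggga
Bcs1l: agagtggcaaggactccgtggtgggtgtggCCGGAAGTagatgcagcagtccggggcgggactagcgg
Cox6a1: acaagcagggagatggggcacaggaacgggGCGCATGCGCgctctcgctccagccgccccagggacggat
Uqcc3: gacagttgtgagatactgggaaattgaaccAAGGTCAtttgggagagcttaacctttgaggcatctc
These stretches lie at chr4:116075071-116075111, strand -, at chr10:80406850-80406917, strand -, at chr11:64079473-64079529, strand -, at chr12:81485138-81485183, strand -, at chr1:74588212-74588279, strand +, at chr5:115349081-115349150, strand - and at chr19:8881034-8881100, strand -. Of their genes, Uqcrh, Uqcr11 and Cox10 fell, Cox16 rose, and Bcs1l, Cox6a1 and Uqcc3 did not pass, so the CCGGAAGT letters stand before genes of each kind. This motif was found in 8 of 35 members (22.9%) and in 4.31% of the 27025 genes in the promoter table. The other 3 members that held it are Cox8a, Cox14 and Cox15, and Cox8a held it 2 times. The NRF1 palindrome was found in 2 of 35 (5.71%, against 1.07% of all genes), Cox6a1, which did not pass, and Uqcrc1, which had the largest fall in complex III and holds it within the transcribed bases. AAGGTCA was found in Uqcc3 only (2.86%, against 5.38%), and TNAAGGTCA in none of the 35, against 1.43% of all genes. A match is a description of letters, and its absence says only that these letters are not in this window.

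In complex III, the falls covered the whole range of its parts and were deepest for a core protein and the iron-sulfur subunit. The core protein gene Uqcrc1, on chromosome 9 from 108936633 to 108949623 of mm10, had 157.4, 132.2, 156.8 and 100.9 RPKM in the AAV-Cre libraries, against 387.4, 431.6, 344.1 and 404.3 RPKM in the AAV-Luc libraries. That is 136.8 ± 26.7 RPKM in AAV-Cre and 391.8 ± 36.7 RPKM in AAV-Luc (SD, n = 4 each; log2 fold change -1.53, SE 0.14, adjusted p 1.5e-05 in limma). All 4 AAV-Cre values lay below all 4 AAV-Luc values, and AAV-Cre library 4 was lowest. Uqcrfs1, the Rieske iron-sulfur protein that takes electrons from ubiquinol, had 160.2, 136.1, 142.9 and 114.0 RPKM in the AAV-Cre libraries, against 357.2, 372.0, 328.3 and 371.1 RPKM in the AAV-Luc libraries (log2 fold change -1.37, SE 0.10, adjusted p 4.28e-06 in limma). Uqcrq, a small subunit next to cytochrome b, had 72.8, 67.3, 61.4 and 60.8 RPKM in the AAV-Cre libraries, against 151.4, 180.0, 138.1 and 140.1 RPKM in the AAV-Luc libraries (log2 fold change -1.21, SE 0.10, adjusted p 7.63e-06 in limma). Neither gene overlapped between the groups, and AAV-Cre library 4 again held the lowest value. The other core protein gene, Uqcrc2, had 147.1 ± 11.8 RPKM in AAV-Cre and 319.4 ± 10.5 RPKM in AAV-Luc (SD, n = 4 each; log2 fold change -1.12, SE 0.07, adjusted p 1.67e-06 in limma), and 19.7% of its exon bases are shared with Pdzd9 on the opposite strand. Cyc1, cytochrome c1, which hands the electron to cytochrome c, had 142.3, 124.1, 130.0 and 101.9 RPKM in the AAV-Cre libraries, against 263.2, 286.3, 229.5 and 273.0 RPKM in the AAV-Luc libraries (log2 fold change -1.08, SE 0.11, adjusted p 2.49e-05 in limma). For Uqcrc2 and Cyc1 too, every AAV-Cre value lay below every AAV-Luc value. The small subunits Uqcr11, Uqcrh, the hinge protein, Uqcrb and Uqcr10 had log2 fold changes of -1.02, -0.86, -0.68 and -0.59. All 4 fell; Uqcrb, Uqcr10 and Uqcr11 have near-identical copies elsewhere in the table, and their reads may not be separable. After centring all 9 subunits were lower, with a median of -1.49 and the largest difference, -1.94, for Uqcrc1. Of all genes tested, 8.87% fell as deposited and 24.1% were lower after centring. The 9 subunit transcripts summed to 1391 to 1584 RPKM in AAV-Cre and 2857 to 3394 RPKM in AAV-Luc. Within a library, the highest subunit, Uqcrh, was 4.45 to 5.56 times the lowest, Uqcrq, in AAV-Cre and 3.67 to 4.37 times in AAV-Luc.

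The electron carrier between the complexes fell as its partners did. Cycs, the somatic cytochrome c, had 105.7, 107.1, 88.6 and 96.6 RPKM in the AAV-Cre libraries, against 191.6, 185.7, 198.6 and 196.1 RPKM in the AAV-Luc libraries (log2 fold change -0.96, SE 0.07, adjusted p 4.93e-06 in limma). The groups did not overlap, and Cycs was lower after centring as well (-1.36). The ratio of Cycs to Cyc1 within a library was 0.744, 0.863, 0.683 and 0.948 in the AAV-Cre libraries, against 0.728, 0.649, 0.865 and 0.719 in the AAV-Luc libraries, so that the groups overlapped (log2 difference 0.13, two-sided exact permutation p = 0.371). The level of Cycs is uncertain, because the table also lists near-identical copies, among them Gm10053 and Gm10108, which measured means of 82.8 and 141.2 RPKM in AAV-Cre and 155.4 and 261.0 RPKM in AAV-Luc.

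**Figure D2:**
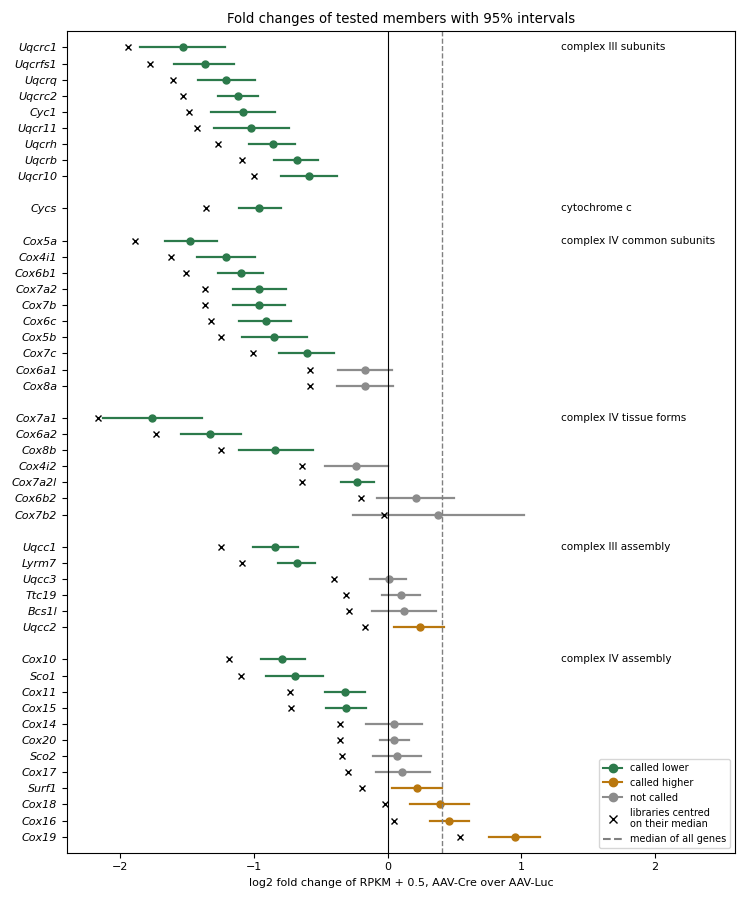
Log2 fold change of RPKM + 0.5 (AAV-Cre over AAV-Luc) of the tested members by role (without the pseudogene row Cox6c2), with 95% intervals (n = 4 libraries each); green fell, orange rose, grey did not pass, crosses give the values with libraries centred on their median, and the dashed line is the median of all genes at 0.41. Most subunits lie to the left, down to -1.76 for Cox7a1, but Cox6b2 (0.21) and Cox7b2 (0.38) have positive values. Assembly factors run from -0.84 to 0.95, a range that several subunits share. Of the 5 that rose, 4 (all but Cox19) lie between -0.19 and 0.05 after centring.

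In complex IV, the common subunits fell by unequal amounts. Cox5a, a subunit on the matrix side, had 84.6, 76.9, 79.8 and 65.9 RPKM in the AAV-Cre libraries, against 211.8, 235.3, 199.9 and 210.0 RPKM in the AAV-Luc libraries, the largest fall among the common forms (log2 fold change -1.48, SE 0.09, adjusted p 1.37e-06 in limma); 12.8% of its exon bases are shared with Gm26631 on the opposite strand. Cox4i1, the common form of subunit 4 and the most abundant member in AAV-Luc, had 424.5, 392.3, 420.8 and 327.8 RPKM in the AAV-Cre libraries, against 880.9, 1028, 846.6 and 862.7 RPKM in the AAV-Luc libraries (log2 fold change -1.21, SE 0.10, adjusted p 8.58e-06 in limma). In neither gene did the groups overlap, and both were lower after centring, Cox5a at -1.89 and Cox4i1 at -1.62. Cox6b1, which lies on the intermembrane side, had a log2 fold change of -1.10, and Cox7a2, Cox7b, Cox6c, Cox5b and Cox7c had -0.96, -0.96, -0.91, -0.85 and -0.60. All 6 fell, as they did after centring (-1.51 to -1.01), against 8.87% and 24.1% of all genes tested. Cox5b and Cox7c share sequence with listed copies, Gm11273 and Gm12338, and Cox6c and Cox7b with pseudogenes, so their reads may not be separable. Cox6a1 and Cox8a, the common forms of subunits 6a and 8, did not pass. Cox6a1 had 69.3, 73.1, 65.9 and 68.7 RPKM in the AAV-Cre libraries, against 87.9, 84.2, 67.2 and 74.1 RPKM in the AAV-Luc libraries (log2 fold change -0.17, 95% interval -0.37 to 0.03, adjusted p 0.102 in limma), and Cox8a had 81.3, 93.6, 82.3 and 87.7 RPKM in the AAV-Cre libraries, against 95.9, 116.1, 90.3 and 87.4 RPKM in the AAV-Luc libraries (log2 fold change -0.17, 95% interval -0.38 to 0.04, adjusted p 0.128 in limma). Both pairs of groups overlapped, although both genes were lower after centring, each at -0.58. Without AAV-Luc library 3, Cox6a1 passed as lower (-0.24, limma adjusted p = 0.0165). From the lowest to the highest common subunit the level spanned 6.39 to 6.92 times in each AAV-Cre library and 10 to 12.6 times in each AAV-Luc library.

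The heart and skeletal muscle forms fell further than their common partners. Cox7a1, on chromosome 7 from 30184144 to 30186078 of mm10, had 212.4, 200.6, 207.4 and 135.2 RPKM in the AAV-Cre libraries, against 570.3, 817.0, 602.4 and 565.9 RPKM in the AAV-Luc libraries. That is 188.9 ± 36.1 RPKM in AAV-Cre and 638.9 ± 120.0 RPKM in AAV-Luc (SD, n = 4 each), the largest fall among the members (log2 fold change -1.76, SE 0.16, adjusted p 1.74e-05 in limma), and 0.189% of all genes tested fell further. AAV-Cre library 4 was the lowest and AAV-Luc library 2 the highest, and no values overlapped. Its common partner Cox7a2 had 102.2, 112.6, 89 and 100.4 RPKM in the AAV-Cre libraries, against 183.6, 218.9, 205.7 and 179.4 RPKM in the AAV-Luc libraries (log2 fold change -0.96, SE 0.09, adjusted p 1.78e-05 in limma). The ratio of Cox7a1 to Cox7a2 within a library was 2.07, 1.78, 2.32 and 1.35 in the AAV-Cre libraries, against 3.1, 3.73, 2.92 and 3.15 in the AAV-Luc libraries (log2 difference -0.80). The AAV-Cre ratio was lowest in library 4, and the groups were separate both for Cox7a2 and for the ratio. Cox6a2 had 231.1, 212.1, 225.2 and 201.9 RPKM in the AAV-Cre libraries, against 508.1, 667.1, 537.1 and 485.8 RPKM in the AAV-Luc libraries (log2 fold change -1.33, SE 0.10, adjusted p 5.39e-06 in limma), and 10.3% of its exon bases are shared with Itgad on the opposite strand. The ratio of Cox6a2 to Cox6a1 was 3.32, 2.89, 3.4 and 2.93 in the AAV-Cre libraries, against 5.75, 7.89, 7.94 and 6.52 in the AAV-Luc libraries (log2 difference -1.16). Neither the level of Cox6a2 nor this ratio overlapped between the groups. Cox8b had 223.7, 233.2, 210.4 and 189.2 RPKM in the AAV-Cre libraries, against 355.7, 484.6, 384.7 and 320.5 RPKM in the AAV-Luc libraries (log2 fold change -0.84, SE 0.12, adjusted p 0.000231 in limma). The ratio of Cox8b to Cox8a was 2.74, 2.49, 2.55 and 2.15 in the AAV-Cre libraries, against 3.69, 4.16, 4.24 and 3.65 in the AAV-Luc libraries (log2 difference -0.67). In all 3 pairs every AAV-Cre ratio lay below every AAV-Luc ratio, yet the muscle form remained the more abundant per length in all 8 libraries. After centring Cox7a1, Cox6a2 and Cox8b were lower, at -2.17, -1.73 and -1.25.

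A ratio within a library does not depend on a common scale factor, apart from the small constant added. It can depend on the mix of cells, and the part of the higher fibroblast and macrophage markers in these ratios was not tested. Of 8 pairs compared, 7 differed with a two-sided exact permutation p of 0.0286, the smallest that 4 against 4 can give. Their adjusted p was 0.0327 over the 8 pairs, and Cycs to Cyc1 was the exception. Such a ratio shows that the members changed unequally, and not that either stayed the same. How often ratios of unrelated genes differ so was not tested. Among single genes tested, 7.67% had every AAV-Cre value below every AAV-Luc value and 58.4% above, so separated groups are common in these data. Each ratio was computed on RPKM + 0.5, and with pseudocounts of 0.1 and 1 and after quantile normalization the same 7 passed.

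**Figure D3:**
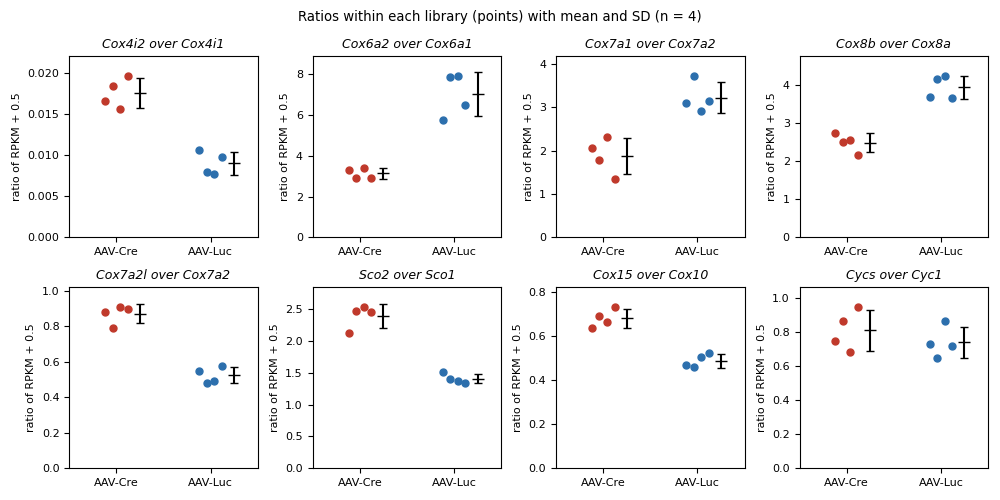
Ratio of RPKM + 0.5 between paired genes within each library (points), with mean and SD beside them (n = 4 libraries per group, AAV-Cre red on the left, AAV-Luc blue on the right). The muscle forms Cox6a2, Cox7a1 and Cox8b are lower relative to their common partners in every AAV-Cre library, Cox4i2, Cox7a2l, Sco2 and Cox15 are higher relative to their partners, and Cycs to Cyc1 overlaps.

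The minor and related forms showed a different balance. Cox4i2, the form of subunit 4 known from lung and low oxygen, was low in the ventricles, with 6.54, 6.72, 6.09 and 5.98 RPKM in the AAV-Cre libraries, against 8.81, 7.66, 6.03 and 7.91 RPKM in the AAV-Luc libraries (log2 fold change -0.24, 95% interval -0.47 to 0.00, adjusted p 0.0701 in limma). It did not pass and the groups overlapped; after centring it was lower (-0.64), as it was without AAV-Luc library 3 (-0.34, limma adjusted p = 0.00413). Relative to Cox4i1 it was 0.0166, 0.0184, 0.0156 and 0.0197 in the AAV-Cre libraries, against 0.0106, 0.00794, 0.00771 and 0.00974 in the AAV-Luc libraries, a log2 difference of 0.98. Cox7a2l, a relative of Cox7a2 that takes part in joining complexes III and IV into supercomplexes, had 89.8, 89.1, 80.8 and 90.1 RPKM in the AAV-Cre libraries, against 100.8, 104.7, 100.6 and 103.3 RPKM in the AAV-Luc libraries (log2 fold change -0.23, SE 0.06, adjusted p 0.00503 in limma). Its fall was small and without overlap (-0.64 after centring), and its ratio to Cox7a2 was 0.879, 0.792, 0.909 and 0.898 in the AAV-Cre libraries, against 0.55, 0.48, 0.49 and 0.577 in the AAV-Luc libraries (log2 difference 0.73). The testis forms Cox6b2 and Cox7b2 were near the limit of the filter. Cox6b2 had 1.39, 2.11, 1.45 and 1.61 RPKM in the AAV-Cre libraries, against 1.15, 1.56, 1.27 and 1.38 RPKM in the AAV-Luc libraries (log2 fold change 0.21, 95% interval -0.08 to 0.50, adjusted p 0.162 in limma), and Cox7b2 had 1.47, 3.11, 0.851 and 2.31 RPKM in the AAV-Cre libraries, against 1.81, 1.15, 0.876 and 1.31 RPKM in the AAV-Luc libraries (log2 fold change 0.38, 95% interval -0.26 to 1.02, adjusted p 0.253 in limma). Neither passed as deposited, and the groups overlapped in both genes; without AAV-Cre library 3, Cox7b2 passed as higher (0.63, limma adjusted p = 0.0367), against -0.03 after centring of all libraries. The pseudogene row Cox6c2, which is 97.0% identical to Cox6c over 231 bases, had 3, 2.12, 1.83 and 1.75 RPKM in the AAV-Cre libraries, against 3.25, 6.82, 3.67 and 3.14 RPKM in the AAV-Luc libraries and is not a separate measure of that gene.

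Among complex III assembly factors, Uqcc1 and Lyrm7 fell, Uqcc2 rose and 3 did not pass. Over all genes tested, 8.87% fell and 64.4% rose. After centring 5 of the 6 were lower and 0 higher, against 24.1% and 21.8% of all genes. Uqcc1, needed for the making of cytochrome b, had 20.7 ± 1.81 RPKM in AAV-Cre and 37.4 ± 2.27 RPKM in AAV-Luc (SD, n = 4 each; log2 fold change -0.84, SE 0.08, adjusted p 1.61e-05 in limma). Lyrm7, which holds the Rieske protein in the matrix before its insertion, had 6.86 ± 0.349 RPKM in AAV-Cre and 11.3 ± 0.284 RPKM in AAV-Luc (log2 fold change -0.68, SE 0.06, adjusted p 1.52e-05 in limma). In both, every AAV-Cre library was below every AAV-Luc library, and after centring they were at -1.25 and -1.09. Uqcc2, the partner of Uqcc1, had 63.2, 73.1, 71.1 and 74.2 RPKM in the AAV-Cre libraries, against 58.3, 68.4, 57.3 and 55.1 RPKM in the AAV-Luc libraries and rose slightly (log2 fold change 0.24, SE 0.08, adjusted p 0.0259 in limma), but the groups overlapped, the sign turned after centring (-0.17) and the call was lost without any one of 6 libraries. Uqcc3, which acts on cytochrome b, had 16, 16.6, 16.2 and 16 RPKM in the AAV-Cre libraries, against 16.2, 16.9, 14.9 and 16.5 RPKM in the AAV-Luc libraries (log2 fold change 0.01, 95% interval -0.13 to 0.14, adjusted p 0.904 in limma). Bcs1l, the ATPase that inserts the Rieske protein, had 11.3, 11.2, 11.9 and 9.83 RPKM in the AAV-Cre libraries, against 10.7, 11.2, 8.07 and 10.9 RPKM in the AAV-Luc libraries (log2 fold change 0.12, 95% interval -0.12 to 0.36, adjusted p 0.336 in limma). Ttc19, which helps clear Rieske fragments from the complex, had 76.4, 75.4, 66.9 and 70.6 RPKM in the AAV-Cre libraries, against 68.2, 64.4, 69.7 and 66.7 RPKM in the AAV-Luc libraries (log2 fold change 0.10, 95% interval -0.04 to 0.24, adjusted p 0.157 in limma). None of these 3 passed as deposited and their groups overlapped; after centring they were lower, at -0.40, -0.29 and -0.31. The 6 factors summed to 194.4 to 203.4 RPKM in AAV-Cre and 196.0 to 212.8 RPKM in AAV-Luc.

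Of the 12 complex IV assembly factors, 4 fell, 4 rose and 4 did not pass, against 8.87% of all genes that fell and 64.4% that rose. After centring 8 were lower, 1 was higher and 3 did not pass, against 24.1% and 21.8% of all genes. The enzymes of heme A synthesis fell, Cox10 more than Cox15 (after centring -1.19 and -0.72). Cox10 had 10.2, 8.84, 9.49 and 8.68 RPKM in the AAV-Cre libraries, against 16.9, 16.9, 15.1 and 16.6 RPKM in the AAV-Luc libraries (log2 fold change -0.79, SE 0.07, adjusted p 1.59e-05 in limma), and Cox15 had 6.3, 5.95, 6.12 and 6.24 RPKM in the AAV-Cre libraries, against 7.64, 7.49, 7.39 and 8.45 RPKM in the AAV-Luc libraries (log2 fold change -0.31, SE 0.07, adjusted p 0.00225 in limma). Neither overlapped, and the ratio of Cox15 to Cox10 was 0.636, 0.691, 0.663 and 0.734 in the AAV-Cre libraries, against 0.467, 0.458, 0.506 and 0.525 in the AAV-Luc libraries (log2 difference 0.48).

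Among the copper delivery factors, Sco1 and Cox11 fell, and Sco2 and Cox17 did not pass as deposited. After centring all 4 were lower, Sco1 at -1.10, Cox11 at -0.73, Sco2 at -0.34 (limma adjusted p = 0.00317) and Cox17 at -0.30 (limma adjusted p = 0.0233). Sco1 had 4.67, 4.01, 3.78 and 3.57 RPKM in the AAV-Cre libraries, against 6.87, 6.81, 6 and 7.47 RPKM in the AAV-Luc libraries and fell (log2 fold change -0.69, SE 0.10, adjusted p 0.000163 in limma). Its paralog Sco2 had 10.5, 10.7, 10.4 and 9.49 RPKM in the AAV-Cre libraries, against 10.6, 9.78, 8.45 and 10.2 RPKM in the AAV-Luc libraries (log2 fold change 0.07, 95% interval -0.11 to 0.25, adjusted p 0.444 in limma) and overlapped between groups. The ratio of Sco2 to Sco1 was 2.12, 2.47, 2.54 and 2.46 in the AAV-Cre libraries, against 1.51, 1.41, 1.38 and 1.34 in the AAV-Luc libraries, a log2 difference of 0.77. Sco2 is uncertain, since 68.3% of its exon bases are shared with Tymp and 66.2% with Ncaph2, and Ncaph2 measured a mean of 20.1 RPKM in AAV-Cre and 13.8 RPKM in AAV-Luc. Cox11 fell, with 9.01 ± 0.492 RPKM in AAV-Cre and 11.4 ± 0.553 RPKM in AAV-Luc (SD, n = 4 each; log2 fold change -0.32, SE 0.07, adjusted p 0.00171 in limma), and shares 48.3% of its exon bases with Tom1l1 on the opposite strand. Cox17, the copper chaperone upstream of the Sco proteins, had 95.1, 107.4, 102.8 and 119.0 RPKM in the AAV-Cre libraries, against 88.5, 112.0, 99.1 and 93.4 RPKM in the AAV-Luc libraries (log2 fold change 0.11, 95% interval -0.09 to 0.32, adjusted p 0.289 in limma), with overlap.

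Cox19, a further copper-handling factor, showed the opposite of the subunits. Located on chromosome 5 from 139336189 to 139351418 of mm10, it had 15.4, 16.5, 17 and 16.6 RPKM in the AAV-Cre libraries, against 8.58, 9.42, 7.3 and 7.73 RPKM in the AAV-Luc libraries. That is 16.4 ± 0.673 RPKM in AAV-Cre and 8.26 ± 0.939 RPKM in AAV-Luc (SD, n = 4 each; log2 fold change 0.95, SE 0.08, adjusted p 1.24e-05 in limma), with every AAV-Cre library above every AAV-Luc library. It was the only member that was higher after centring too (0.54, limma adjusted p = 0.000168). As deposited, 10.1% of all genes tested rose further, so its rise is large among the members rather than in the table.

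The remaining complex IV factors rose a little or did not pass. Cox18, which inserts the second mitochondrially encoded subunit into the membrane, had 6.3, 5.9, 5.44 and 5.5 RPKM in the AAV-Cre libraries, against 4.63, 4.03, 3.68 and 4.93 RPKM in the AAV-Luc libraries and rose (log2 fold change 0.39, SE 0.10, adjusted p 0.00504 in limma). Cox16, which acts on the same subunit, had 32.9, 37.9, 34.2 and 38.2 RPKM in the AAV-Cre libraries, against 25.9, 25.2, 25.9 and 26.2 RPKM in the AAV-Luc libraries and rose (log2 fold change 0.46, SE 0.06, adjusted p 0.000178 in limma), although 56.8% of its exon bases belong also to Gm20498 on the same strand, which measured means of 76.3 RPKM in AAV-Cre and 68.1 RPKM in AAV-Luc. Surf1, a factor of early assembly whose loss in people causes Leigh syndrome, had 31.3, 33.5, 35.1 and 29 RPKM in the AAV-Cre libraries, against 28.3, 30, 24.3 and 28.1 RPKM in the AAV-Luc libraries and rose (log2 fold change 0.22, SE 0.08, adjusted p 0.0395 in limma) with overlapping groups. None of the 3 passed after centring, where Cox18, Cox16 and Surf1 were at -0.02, 0.05 and -0.19, and Surf1 lost its call without any one of 6 libraries. Cox14, a factor for the first mitochondrially encoded subunit, had 61.6, 66.9, 59.4 and 55.9 RPKM in the AAV-Cre libraries, against 59.2, 68.7, 57.6 and 50.9 RPKM in the AAV-Luc libraries (log2 fold change 0.05, 95% interval -0.16 to 0.26, adjusted p 0.65 in limma). Cox20, a chaperone of the second, had 83.9, 85.5, 82.9 and 84.5 RPKM in the AAV-Cre libraries, against 84.1, 79.9, 81.4 and 80.9 RPKM in the AAV-Luc libraries (log2 fold change 0.05, 95% interval -0.06 to 0.16, adjusted p 0.416 in limma). Both overlapped and did not pass as deposited, and both were lower after centring, each at -0.36 (limma adjusted p = 0.00906 for Cox14 and 0.000428 for Cox20). In addition, 91.1% of the exon bases of Cox20 are shared with Hnrnpu on the opposite strand, which measured means of 120.2 RPKM in AAV-Cre and 86.8 RPKM in AAV-Luc. Together the 12 complex IV factors summed to 367.7 to 392.3 RPKM in AAV-Cre and 346.0 to 381.3 RPKM in AAV-Luc, while the 10 common subunits summed to 2004 to 2193 RPKM in AAV-Cre and 3692 to 4512 RPKM in AAV-Luc.

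**Figure D4:**
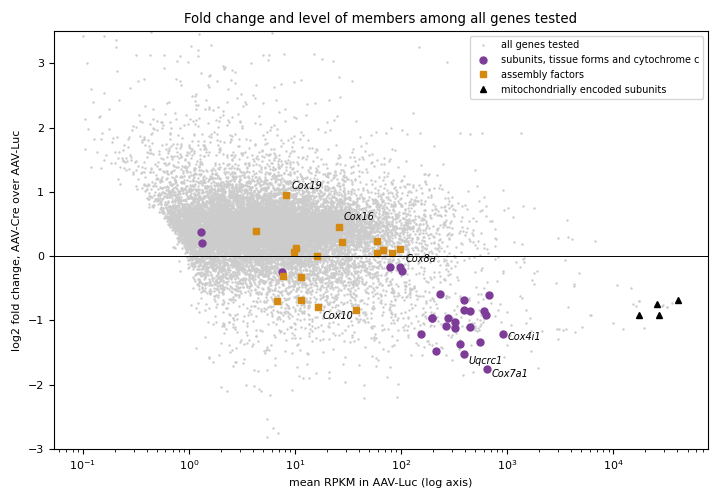
Log2 fold change (AAV-Cre over AAV-Luc) against mean RPKM in AAV-Luc (log axis) for all genes tested (grey), subunits with tissue forms and cytochrome c (purple circles), assembly factors (orange squares) and mitochondrially encoded subunits (black triangles); 62 genes lie outside the axes. Subunits above 100 RPKM lie below 0, and assembly factors, as deposited, spread on both sides of it, from -0.84 for Uqcc1 to 0.95 for Cox19.

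The partners made in the mitochondrion fell as well, with a median log2 fold change of -0.83 over 4 transcripts, against -0.96 over the 20 complex III subunits, common complex IV subunits and cytochrome c. mt-Cytb, cytochrome b of complex III, had 9338, 9238, 9350 and 8853 RPKM in the AAV-Cre libraries, against 16980, 16440, 18360 and 17720 RPKM in the AAV-Luc libraries (log2 fold change -0.92, SE 0.08, adjusted p 1.02e-05 in limma). mt-Co1, which holds the oxygen-reducing site of complex IV, had 26320, 25830, 24920 and 25100 RPKM in the AAV-Cre libraries, against 39540, 38430, 43680 and 41640 RPKM in the AAV-Luc libraries (log2 fold change -0.67, SE 0.09, adjusted p 0.000119 in limma). These are levels per length, and no AAV-Cre value reached the AAV-Luc range. mt-Co2, which receives electrons from cytochrome c, had 14790, 14510, 14240 and 13690 RPKM in the AAV-Cre libraries, against 26630, 26300, 29060 and 25910 RPKM in the AAV-Luc libraries (log2 fold change -0.91, SE 0.08, adjusted p 1.52e-05 in limma). mt-Co3 had 15600, 16240, 14910 and 15020 RPKM in the AAV-Cre libraries, against 24680, 24960, 28460 and 25660 RPKM in the AAV-Luc libraries (log2 fold change -0.75, SE 0.09, adjusted p 6.15e-05 in limma). The groups were separate in all 4, which were at -1.33 to -1.08 after centring. Of all genes tested, 7.67% had every AAV-Cre value below every AAV-Luc value, and 24.1% were lower after centring. The sign of mt-Co3 turned only with quantile normalization (0.08), which fixes the values of the highest ranks. Near-identical copies were searched for the members only, so whether other rows share reads with these 4 transcripts was not tested. The row Gm28437 had nearly the same values as mt-Co3 (log2 fold change -0.75, SE 0.09). Likewise Gm28661 lay close to mt-Co2 (-0.92, SE 0.08), so the levels of both mitochondrial transcripts are uncertain.

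Other factors of complex IV and cytochrome c, listed by function and not by rule of name, were divided as well. Of 22 listed, 21 were tested (Cyct, the testis cytochrome c, was not), and 8 fell, 6 rose and 7 did not pass. Over all genes tested, 8.87% fell and 64.4% rose. After centring 16 were lower and 1 higher, against 24.1% and 21.8% of all genes. The 3 with the smallest p were Ndufa4, a subunit now placed in complex IV, at 297.8, 320.7, 265.6 and 271.1 RPKM in the AAV-Cre libraries, against 546.8, 644.9, 609.4 and 549.4 RPKM in the AAV-Luc libraries (log2 fold change -1.02, SE 0.08, adjusted p 8.69e-06 in limma), Cmc2 (log2 fold change -0.85, SE 0.07, adjusted p 1.07e-05 in limma) and Lrpprc, which stabilises mitochondrial messenger RNAs (log2 fold change -0.91, SE 0.08, adjusted p 1.68e-05 in limma). Slirp, which binds Lrpprc, rose while Lrpprc fell. It had 12.7, 15.7, 13.3 and 14.3 RPKM in the AAV-Cre libraries, against 8.94, 9.45, 8.44 and 8.69 RPKM in the AAV-Luc libraries (log2 fold change 0.63, SE 0.08, adjusted p 9.27e-05 in limma) and was the factor still higher after centring (0.22). The other 5 that rose were Pet117, Coa4, Pet100, Coa3 and Apopt1, with log2 fold changes of 0.59, 0.39, 0.36, 0.28 and 0.23. After centring these were at 0.18, -0.01, -0.05, -0.12 and -0.18, and Apopt1 was then lower by the test.

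Libraries of the same label were not alike in these genes. Of 23 subunits, muscle forms and cytochrome c, 20 had their highest AAV-Luc value in library 2. In all genes tested, AAV-Luc library 2 exceeded the mean of the other AAV-Luc libraries by a median log2 difference of 0.18 where the main transcript had under 700 bases (382 genes), 0.08 from 700 to under 2500 bases (4615 genes) and 0.02 at 2500 bases or more (7434 genes). The median log2 fold change between the groups was 0.38, 0.42 and 0.39 in these classes, and 17%, 11.2% and 7.08% of genes fell. Without AAV-Luc library 2, all 29 members that fell still passed as lower, and the median over members was -0.60. Leaving out the 7 members that share at least 10% of their exon bases with another gene, a choice made after seeing the data, left 25 that fell and 4 that rose. Smaller shares hold for Cox4i1 (9.9%, with Emc8), Cox15 (9.0%, with Entpd7), Surf1 (7.8%, with Surf2) and Cox6c (7.0%, with Vps13b). They also hold for Uqcrb (5.7%, with Gm10767), Cox17 (4.5%, with Gm21987) and Cox10 (1.6%, with 9630013K17Rik). The lowest AAV-Cre value of the 23 lay in library 3 for 11 and in library 4 for 11.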

How the data were processed

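Ventricular poly(A) RNA was sequenced in paired-end reads, and the authors deposited RPKM per gene for 8 libraries (4 AAV-Cre, 4 AAV-Luc). The submitters' processing notes name STAR, edgeR, Partek 6.6, FastQC 0.11 and build mm10 without saying what each did. RPKM is relative to length and library, so a change in a few abundant transcripts moves all others. Low values were whole multiples of 1 read (tolerance 0.1) for 99.7% to 99.8% of them. Column names carry a group but no sample, so libraries are replicates without a pairing.

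From these values, log2(RPKM + 0.5) was fitted with limma 3.58.1 (R 4.3.3, trend) over the 16385 genes that reached 1 RPKM in 4 or more libraries. P-values were Benjamini-Hochberg adjusted over all of them, with a threshold of 0.05, and the fit was tested on simulated data. The simulated data had independent noise and no shift shared by all genes, so they do not test the choice of scaling. Fold changes are on this scale, which understates those of low genes. Ratios of paired genes used a two-sided exact permutation test over 70 arrangements, adjusted over 8 pairs. Positions, exon overlaps and copies (BLAST 2.17.0, at least 95% identity over 150 bases) come from GENCODE M21 on GRCm38, the assembly of mm10. Counting by strand is not given in the sources used here, so overlapping genes cannot be told apart. Every member was named by role, with values per library for members of pairs, for the 3 largest falls in each complex, for members that rose or did not pass and for mitochondrially encoded subunits; further factors were given by counts, the 3 smallest p and those that rose. Members and lists were chosen with earlier results of these data known. Alternatives were pseudocounts, filters, scalings, variance settings and left-out libraries.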

Additional observations from a re-analysis of the deposited data

Results flagged for a closer look

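In 7 of 120 groups of 4 libraries, 1 library stood far from the other 3, by the gap to its nearest neighbour as a share of the whole range; chance gives about 1 in 20 groups. AAV-Luc library 2 was the highest of its group in 4 of these. Its Uqcr10 was 281.3 RPKM (gap share 0.903), its Cox6b1 507.9 RPKM (0.873), its Cox7a1 817.0 RPKM (0.854) and its Cox6c2 6.82 RPKM (0.857). Without this library, Uqcr10, Cox6b1, Cox7a1 and Cox6c2 still passed as lower. Cox7a1 was also lowest in AAV-Cre library 4, at 135.2 RPKM (0.847), and Cox7a2l was lowest in AAV-Cre library 3, at 80.8 RPKM (0.89). Bcs1l was lowest in AAV-Luc library 3, at 8.07 RPKM (0.843), and its log2 fold change ran from 0.02 to 0.17 over the left-out libraries without passing.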

How the results depend on the processing

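Scaling decided the split of calls. With each library centred on its median, 1 member was higher, the members' median was -1.09, and over all genes 3949 were lower and 3578 higher. With quantile normalization these were 1, -0.89, 3838 and 3810. Of the signs that turned below, Bcs1l, Ttc19, Uqcc3, Cox14, Cox17, Cox20, Sco2 and Apopt1 passed as lower after centring. Without mitochondrial genome and haemoglobin genes 3 members were higher, and with a mean of at least 5 RPKM 6607 genes were higher, since fewer were tested. Signs turned, centred and then quantile, for Bcs1l (-0.29, -0.28), Ttc19 (-0.31, -0.20), Uqcc2 (-0.17, -0.05), Uqcc3 (-0.40, -0.38), Cox6b2 (-0.20, -0.21), Cox7b2 (-0.03, -0.07), Cox14 (-0.36, -0.26), Cox17 (-0.30, -0.20), Cox18 (-0.02, -0.03), Cox20 (-0.36, -0.26), Sco2 (-0.34, -0.33), Surf1 (-0.19, -0.15), Coa3 (-0.12, -0.08), Coa4 (-0.01, -0.04), Pet100 (-0.05, -0.05) and Apopt1 (-0.18, -0.15), and for mt-Co3 with quantile normalization (0.08). Without mitochondrial genome and haemoglobin genes, Uqcc3 (-0.06), Cox14 (-0.02) and Cox20 (-0.02) turned, as did Uqcc3 with library quality weights (-0.01).

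With libraries left out, 29 to 31 members were lower and 3 to 5 higher, with a median of -0.70 to -0.55. Over all genes, 1306 to 1571 were lower and 9909 to 10374 higher. Uqcc3 ran from -0.03 to 0.03 and Cox14 from -0.02 to 0.14. The log2 differences of pair ratios ran from 0.91 to 1.06 (Cox4i2 over Cox4i1), -1.25 to -1.09 (Cox6a2 over Cox6a1), -0.91 to -0.65 (Cox7a1 over Cox7a2), -0.72 to -0.60 (Cox8b over Cox8a), 0.67 to 0.78 (Cox7a2l over Cox7a2), 0.74 to 0.82 (Sco2 over Sco1), 0.44 to 0.51 (Cox15 over Cox10) and 0.05 to 0.20 (Cycs over Cyc1); with 3 libraries in a group the exact permutation test cannot go below 0.0571. No paired analysis was possible because the columns carry no number that ties a library to a sample. Depth limits Cox20b, Cox8c, Cox6b2 and Cox7b2 most.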

Other observations

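Some rows that resemble a member by sequence carried values of their own. Gm12338, identical to Cox7c over 192 aligned bases, had means of 93.7 RPKM in AAV-Cre and 137.5 RPKM in AAV-Luc. Gm11273, 99.2% identical to Cox5b, had 15.3 RPKM in AAV-Cre and 24.5 RPKM in AAV-Luc. The row 4930481A15Rik, 95.8% identical to Uqcr10 over 191 bases, had 48.7 RPKM in AAV-Cre and 65.3 RPKM in AAV-Luc. How reads were divided between these rows and the genes they resemble was not tested.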
